A study of Homo sapiens with 4 samples.

Results

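Chromosome 19 outside its zinc finger clusters was described with Hi-C contact maps of IMR90 cells, a lung fibroblast line. The members were the bins of about 200 kb on chromosome 19 that do not overlap 19.8 to 24.6 Mb and do not lie above 52.0 Mb in hg19, the stretches in which the KRAB zinc finger genes stand most densely. The last members before the excluded stretches ended at 19787960 and 51987569, and the rule used positions and no measured value. It took 222 of the 283 bins of the chromosome and of the 14444 bins of the whole genome, and they held 1194 protein-coding genes. Of the 222 members, 192 had a value for at least 50% of their pairs in each of the 4 maps and were kept for the comparisons.

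The study asked how HMGA1, a chromatin protein that binds the minor groove of AT-rich DNA, shapes chromosome contacts in oncogene-induced senescence (OIS). The cells carried the pLNCX2 ER:HRAS G12V construct, an oncogenic RAS fused to an oestrogen receptor domain, which 4OHT switches on. The OIS conditions (RIS in the labels) had 6 days of 100 nM 4OHT, and growing cells (Grow) had none. In the shA1 conditions the vector pMSCV miR shHMGA1 expressed a short hairpin RNA against HMGA1. The 4 samples of the series were 2 of Grow-shA1 and 2 of OIS-shA1, pooled by the authors into 1 map per condition. The Grow and OIS maps came from previous work of the laboratory and correspond to no sample here, so a map with shA1 set against a map without it also sets the 2 bodies of data against each other. With 1 map per condition there was no spread between replicates and no test between conditions, and the values below describe these maps. SDs over pairs or bins are spreads within a map, not errors between replicates. Each map averages over a population of cells. How far HMGA1 was lowered cannot be read from contact data.

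Chromosome 19 is the most gene-rich human chromosome for its length and lies towards the middle of the nucleus. It is rich in GC, in CpG islands and in Alu repeats, and it carries many genes that every cell uses beside clusters of tissue-restricted gene families, such as the kallikreins and the sialic acid binding SIGLEC receptors. In Hi-C, active chromatin (the A compartment) contacts other active chromatin and inactive chromatin (the B compartment) contacts other inactive chromatin, along a chromosome and across long distances. In RAS-induced senescence of fibroblasts, inactive chromatin gathers into large foci, the senescence-associated heterochromatic foci.

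Hi-C cuts fixed chromatin, here with HindIII, and joins ends that lie close together, so the HindIII sites set what can be measured. Every bin of the deposited list after the first one of the chromosome (282 of 282) began at a HindIII site. The windows below, from GRCh37, the same assembly as hg19, show such sites at the starts of the bins that bound the results: the largest fall and the largest rise of distal contact in OIS relative to Grow, and the highest and lowest GC content among kept members. They are on the plus strand, the capitals mark the HindIII sites, and none overlaps an annotated exon.
Largest fall, chr19:27999984-28000083: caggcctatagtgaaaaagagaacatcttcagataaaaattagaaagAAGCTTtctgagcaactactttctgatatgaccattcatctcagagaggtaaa
Largest rise, chr19:10999657-10999756: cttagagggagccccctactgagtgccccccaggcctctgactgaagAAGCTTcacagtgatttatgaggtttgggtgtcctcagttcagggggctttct
Highest GC content, chr19:4996786-4996885: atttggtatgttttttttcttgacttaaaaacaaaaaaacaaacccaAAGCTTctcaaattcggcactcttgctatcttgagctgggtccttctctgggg
Lowest GC content, chr19:27798986-27799085: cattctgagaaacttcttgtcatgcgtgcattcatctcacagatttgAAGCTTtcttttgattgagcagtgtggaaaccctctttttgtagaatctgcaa
The bin with the largest fall held 241 HindIII sites and its neighbour with the lowest GC content 228. No other kept member held more than 76. The spacing met most often between their sites was 172 bases, in 45 of 241 and 29 of 228 spacings, close to the unit length of alpha satellite, the tandem repeat of human centromeres. The stretch chr19:28000180-28000399 from the first of them shows a pair of sites at that spacing.
Repeat in the bin with the largest fall: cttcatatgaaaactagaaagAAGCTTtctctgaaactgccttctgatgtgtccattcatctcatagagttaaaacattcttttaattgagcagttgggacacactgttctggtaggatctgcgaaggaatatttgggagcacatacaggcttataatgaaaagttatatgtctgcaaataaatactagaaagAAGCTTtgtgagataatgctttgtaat

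The members had a mean GC content of 49.3%, 5.38 protein-coding genes and 37.1 HindIII sites per bin. Over the autosomes and X the means were 40.9%, 1.404 genes and 58.0 sites. The members ranked above each of the 22 other chromosomes in GC content and gene density and below each of them in HindIII sites. The 30 members that were not kept had a higher mean GC content (54.3%) than the kept ones (48.5%). They had 20.7 HindIII sites per bin and 192 genes, and 22 of them lay in the first 7 Mb of the p arm. There 149 of 209 genes dropped out of the comparisons, so the outer p arm is barely covered below. Across the 216 members with any value, the share of listed pairs correlated with GC content at r = -0.34 in Grow, -0.26 in Grow-shA1, -0.43 in OIS and -0.25 in OIS-shA1. Neighbouring bins share sequence composition and pairs, and these correlations are given as descriptions.

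The deposited scores were corrected for distance by the authors and are read here as a log scale of unstated base. Their mean over the listed pairs of the genome was not 0 at short distances, with 0.717 below 0.3 Mb and -0.204 at 1 to 2 Mb in Grow, so a score was compared with others and not with 0. The number of reads behind a pair is not given, and the share of pairs that a map lists served as its depth. Of the 16674 distal pairs (over 2 Mb apart) among kept members, Grow listed 90.4%, Grow-shA1 86.8%, OIS 74.4% and OIS-shA1 74.4%. The 4 maps had 9767 of these pairs in common. All 4 maps listed each local pair (up to 2 Mb) within A and within B. In A-B pairs the distal share was lowest, at 84.1, 78.6, 61.6 and 62.0% in the same order, whereas in B-B pairs it was 99.01, 97.5, 93.4 and 89.6%. The mean scores of A-B pairs below rest on 3593 of 8577 pairs, those of B-B pairs on 3325 of 3945.

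**Figure D1:**
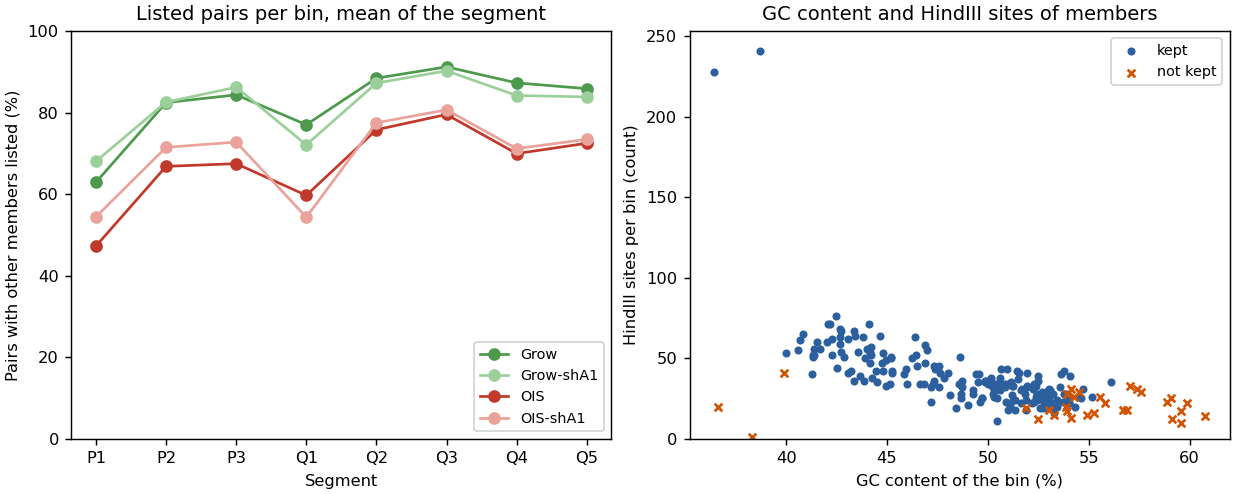
Left, mean share of pairs with other members that each map lists, in percent, by segment from the p end (P1) to the q side (Q5). Right, GC content against HindIII sites for each member. Listing was lower in both OIS maps in every segment, and members without enough values sat mostly at high GC content and few sites.

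The chromosome was followed in 8 segments. P1 (0 to 7 Mb), P2 (7 to 14 Mb) and P3 (14 to 19.8 Mb) form the p arm, and Q1 (24.6 to 32 Mb), Q2 (32 to 39 Mb), Q3 (39 to 44 Mb), Q4 (44 to 48 Mb) and Q5 (48 to 52 Mb) the q arm. The first principal component of the whole chromosome's map, which took 36.6% of the variance in Grow, split the kept members into 97 A and 95 B bins. Q1 stood apart. It held 9 protein-coding genes in 23 bins and 20 of its 21 kept bins were B, with a mean compartment score of -0.75 in Grow. Q2 followed with 27 B bins of 35 and a mean of -0.38. P3 held 21 A bins of 27. Q5, which ends in the kallikrein and SIGLEC clusters, had the most genes per bin (8.35) and as many B as A bins (10 and 10).

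Distal contact between inactive bins was weaker in OIS than in Grow and weaker again with shA1. The mean score of the 3325 common B-B pairs was 0.675 in Grow, 0.529 in Grow-shA1, 0.443 in OIS and 0.254 in OIS-shA1. Grow was highest and OIS-shA1 lowest, and both maps with shA1 were below their counterparts without it. OIS minus Grow was -0.232, OIS-shA1 minus Grow-shA1 -0.275, Grow-shA1 minus Grow -0.146 and, among senescent cells, OIS-shA1 minus OIS -0.189. Over all kept bins of the genome the same differences were -0.049, -0.061, -0.072 and -0.084. The genome and the longer chromosomes also contribute pairs beyond 50 Mb, a separation that members hardly reach. Their distal values, here and below, thus cover other distances than those of the members, except where given by distance. The part of this in the gaps and ranks was not tested. Among the members and the 22 other chromosomes, the members had the most negative difference in 3 of the 4 comparisons. The exception was OIS minus Grow, where 3 of the 22 were lower, down to -0.331 on chromosome 21. In OIS-shA1 minus Grow-shA1 the members (-0.275) were hardly below chromosomes 16 (-0.272) and 17 (-0.266). Other gene-rich chromosomes came close, with -0.249 on chromosome 17 and -0.209 on chromosome 22 in OIS minus Grow and with -0.127 and -0.146 in OIS-shA1 minus OIS. Setting unlisted pairs at 0 left -0.212, -0.214, -0.137 and -0.138 in the order of the differences above.

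Distal contact within the active compartment differed less between the maps over their common pairs. The mean over 2849 common A-A pairs was 0.188 in Grow, 0.201 in Grow-shA1, 0.155 in OIS and 0.115 in OIS-shA1. The 4 values span less than the smallest of the B-B differences. With unlisted pairs at the 1st percentile, however, the A-A difference was -0.227 in OIS minus Grow (from -0.033) and -0.168 in OIS-shA1 minus Grow-shA1 (from -0.086), and in OIS-shA1 minus OIS it turned from -0.040 to 0.045. The A-B mean over 3593 common pairs was -0.317 in Grow, -0.344 in Grow-shA1, -0.469 in OIS and -0.388 in OIS-shA1, lowest in OIS. The difference OIS minus Grow of A-B pairs was -0.152, and with unlisted pairs at 0 it was 0.115, so its direction rests on how pairs absent from a map are treated. OIS-shA1 minus Grow-shA1 of A-B pairs turned in the same way, from -0.044 to 0.142. The gap between the RAS difference with shA1 and that without it was -0.053 for A-A, -0.043 for B-B and 0.108 for A-B pairs. Over all kept bins the gaps were 0.015, -0.012 and 0.054. With unlisted pairs at the 1st percentile the A-A gap had the other sign, as -0.168 with shA1 lay above -0.227 without it. With unlisted pairs at 0 the B-B differences above were nearly equal with and without shA1. The A-B differences, 0.142 and 0.115, were then closer than over common pairs.

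Compartment strength was taken as the average of the within-compartment means (A-A, B-B) minus that across compartments. Among the members it was 0.749 in Grow, 0.709 in Grow-shA1, 0.769 in OIS and 0.573 in OIS-shA1. OIS-shA1 had the weakest separation of the 4, and the other 3 lay within 0.709 to 0.769. OIS minus Grow was 0.020, against a median of 0.084 over the other chromosomes, and -0.230 with unlisted pairs at 0. Of the other 22, 4 were lower, among them chromosomes 17 (-0.029) and 20 (-0.007). Chromosomes 15, 21 and 22 had nearly the same value as the members, at 0.022, 0.023 and 0.021. OIS-shA1 minus OIS was -0.196, below the range of the other 22 (-0.142 to 0.038), and OIS-shA1 minus Grow-shA1 was -0.136, also below theirs (-0.109 to 0.151). The strengths of longer chromosomes likewise include pairs beyond 50 Mb. The share of variance on the first component followed another order, at 36.6% in Grow, 32.3% in Grow-shA1, 24.0% in OIS and 21.2% in OIS-shA1, which is also the order of the listed shares.

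**Figure D2:**
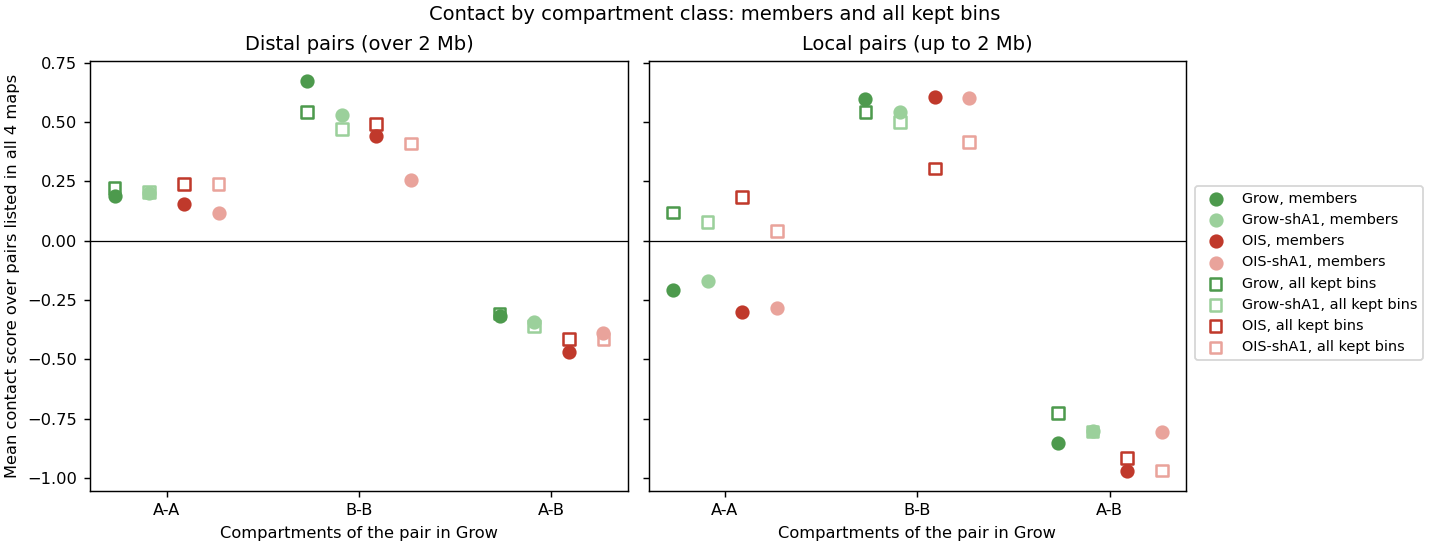
Mean contact score of A-A, B-B and A-B pairs, distal on the left and local on the right, in the 4 maps. Filled circles are the members and open squares all kept bins of the genome, whose distal pairs reach further apart. Distal B-B contact of the members stepped down from 0.675 in Grow to 0.254 in OIS-shA1, while local B-B contact stayed between 0.544 and 0.605.

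Local contact behaved differently. The local B-B mean was 0.596 in Grow, 0.544 in Grow-shA1, 0.605 in OIS and 0.602 in OIS-shA1, and OIS minus Grow was 0.008, where the genome as a whole had -0.238. Only chromosome 22 had a higher difference (0.209). Local A-A contact scored -0.207 in Grow, -0.171 in Grow-shA1, -0.300 in OIS and -0.282 in OIS-shA1, below the 0.119, 0.080, 0.183 and 0.042 of all kept bins in the same maps. The lowest local scores were those across compartments, from -0.802 in Grow-shA1 to -0.972 in OIS.

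By distance, the difference OIS minus Grow was most negative at 10 to 20 Mb, where the members' mean went from 0.348 in Grow to 0.152 in OIS and the difference was -0.196. At 5 to 10 Mb it was -0.141, at 20 to 30 Mb -0.147 and at 30 to 50 Mb -0.081. Below 0.3 Mb it was 0.087. All kept bins had -0.112 at 10 to 20 Mb, -0.116 at 5 to 10 Mb, -0.077 at 20 to 30 Mb, -0.053 at 30 to 50 Mb and -0.097 below 0.3 Mb. At 2 to 5 Mb all kept bins had -0.1585, and the members were not lower there. Among the members OIS-shA1 minus OIS was -0.114 at 5 to 10 Mb and -0.107 at 10 to 20 Mb but 0.100 at 1 to 2 Mb. Between the arms the distal difference OIS minus Grow was -0.091 over 3939 common pairs, within the p arm -0.089 over 1514 and within the q arm -0.213 over 4314. Within the q arm OIS-shA1 minus OIS was -0.100, against 0.008 within the p arm.

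A bin's distal change is the mean difference over its common distal pairs with other kept members, and bins past 0.2 score units were counted. In OIS minus Grow the median over the 192 kept members was -0.134 (SD over bins 0.153, range -0.642 to 0.257), and 158 bins were below 0. Over all kept bins of the genome the median was -0.059. Of the 22 other chromosomes, 3 had a lower median than the members: chromosomes 16 (-0.208), 21 (-0.159) and 22 (-0.143). Among members 60 bins (31.2%) fell past 0.2, where 13.2% of all 13604 kept bins did, and 1 rose, where 0.478% did. Bins of longer chromosomes also average over pairs more than 50 Mb apart, which members hardly have. The medians and shares of all kept bins, here and with shA1 below, are thus not over like distances. B bins made up 44 of the 60. The 95 B bins had a median of -0.173 and the 97 A bins of -0.049. Bins without a protein-coding gene had a median of -0.354 over 22 bins, and bins with 5 or more genes one of -0.094 over 103. With unlisted pairs of kept bins at 0 the median over members was -0.002 and 10 bins fell. With those pairs at the 1st percentile of the map at that distance it was -0.291 and 161 bins fell. The counts thus rest on pairs that one of the maps does not list, which the B-B means do far less.

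With shA1 the RAS difference had nearly the same median. In OIS-shA1 minus Grow-shA1 it was -0.125, 52 members fell past 0.2 (10.5% of all kept bins did) and 3 rose (1.3% did). In OIS-shA1 minus OIS the median was -0.035, 17 members fell (1.33% of all kept bins) and 5 rose (0.434%). In Grow-shA1 minus Grow it was -0.060, 13 fell (0.485%) and 0 rose (0.0221%). Of the 22 other chromosomes, 1, 8 and 6 had a lower median than the members in these 3 comparisons, in the order given. With unlisted pairs at 0, 4 members fell in OIS-shA1 minus Grow-shA1, 0 in OIS-shA1 minus OIS and 1 in Grow-shA1 minus Grow. Of the 17 that fell in OIS-shA1 minus OIS, 16 were B bins, and all 13 that fell in growing cells with shA1 were B bins. A bins had medians of 0.001 and -0.001 in these 2 comparisons.

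**Figure D3:**
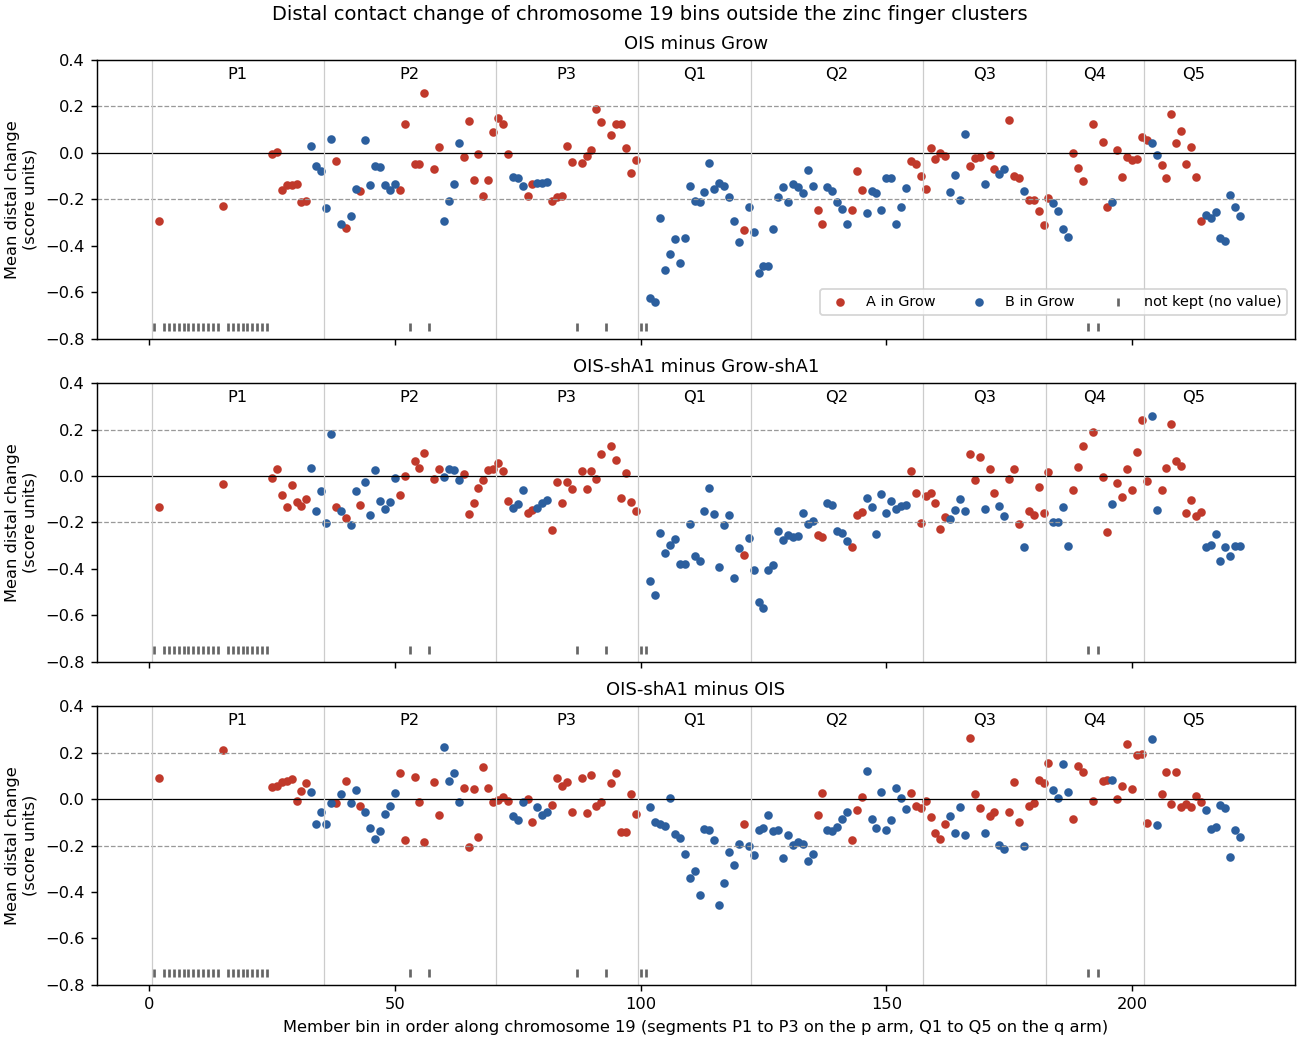
Mean distal change of each member in bin order, for OIS minus Grow, OIS-shA1 minus Grow-shA1 and OIS-shA1 minus OIS, coloured by compartment in Grow. Dashed lines mark 0.2 score units either way and ticks mark members that were not kept. The low values of Q1 and the start of Q2 recur in the first 2 panels, with a lowest value of -0.642 in OIS minus Grow.

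Q1, the gene-poor stretch of the q arm next to the centromere, carried the lowest values. Its median was -0.280 in OIS minus Grow, -0.312 in OIS-shA1 minus Grow-shA1, -0.207 in Grow-shA1 minus Grow and -0.176 in OIS-shA1 minus OIS, the lowest of the 8 segments in each. Of its 21 kept bins, 14, 17, 11 and 9 fell past 0.2 in the same order and 0 rose. Its bins listed 77.1% of their pairs with members in Grow, 72.1% in Grow-shA1, 59.7% in OIS and 54.4% in OIS-shA1. Outside Q1, the 75 B bins had a median of -0.166 in OIS minus Grow.

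The largest fall in OIS minus Grow was in the bin chr19:28000032-28197569, which holds no protein-coding gene. Its mean distal score was 0.694 in Grow, 0.468 in Grow-shA1, 0.052 in OIS and -0.047 in OIS-shA1. The difference OIS minus Grow was -0.642 (SD over its 104 pairs 0.592). The bin before it, chr19:27799034-28000031, had 0.545, 0.338, -0.080 and -0.115, a difference of -0.625. These are the bins with the satellite-like HindIII spacing shown above. In both, the 2 growing maps stood above the 2 OIS maps. Without them, the B-B difference OIS minus Grow was -0.213. The third largest fall was in chr19:32199919-32400293 at the start of Q2, also without a gene, at 0.616 in Grow, 0.506 in Grow-shA1, 0.099 in OIS and -0.036 in OIS-shA1, a difference of -0.518 over 74 pairs. With unlisted pairs at 0 the 3 differences were -0.277, -0.098 and -0.098, and with these pairs at the 1st percentile -0.585, -0.583 and -0.488.

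Further along Q1 the order of the maps was another. The 3 largest falls in OIS-shA1 minus OIS lay there. The bin chr19:30599661-30798887, which holds the start of ZNF536, a zinc finger gene of the nervous system, scored 1.02 in Grow, 0.827 in Grow-shA1, 0.893 in OIS and 0.435 in OIS-shA1. OIS-shA1 was the lowest map and OIS minus Grow was -0.132, while OIS-shA1 minus OIS was -0.457 (SD over its 69 pairs 0.778). The gene-free bins chr19:29803720-29988451 and chr19:30798888-31002771 followed with -0.412 and -0.362. With unlisted pairs at 0 the 3 values were -0.123, -0.154 and -0.048. The bin of CCNE1 in the same segment, the cyclin that drives entry into S phase and a gene picked after its values were seen, had 0.609, 0.483, 0.564 and 0.432 in the order Grow, Grow-shA1, OIS and OIS-shA1, with an OIS minus Grow difference of -0.045.

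Rises were few. The largest in OIS minus Grow was in chr19:10999705-11193633 of P2, the bin of SMARCA4, the ATPase of the SWI/SNF remodelling complex. Its mean distal score was 0.014 in Grow, -0.015 in Grow-shA1, 0.271 in OIS and 0.085 in OIS-shA1. OIS stood above the other 3 maps, by 0.257 over Grow (SD over its 64 pairs 0.880), and with unlisted pairs at the 1st percentile the difference turned to -0.263. The next were the bin of IL12RB1, a chain of the interleukin 12 receptor, at 0.191, and the bin of DBP and RPL18, a clock-controlled factor and a ribosomal protein, at 0.169. At the 1st percentile these turned as well, to -0.288 and -0.320. All 3 were A bins in Grow. In OIS-shA1 minus OIS the largest rises were 0.264 for the bin of SERTAD1 and BLVRB and 0.259 for the bin of CRX and EHD2. The first of these turned to -0.047 over pairs above 5 Mb and the second to -0.092 with unlisted pairs at the 1st percentile.

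Between segments of the q arm, the differences depended on which segments met. Q1 with Q2 (622 of 684 pairs in common) scored 0.912 in Grow, 0.706 in Grow-shA1, 0.657 in OIS and 0.428 in OIS-shA1. The 2 shA1 maps were each below their counterpart, and OIS minus Grow was -0.255. Within Q2 (289 of 309) the scores were -0.068, -0.156, -0.389 and -0.607, and Q2 with Q3 (727 of 828) had 0.019, -0.113, -0.212 and -0.359 in the same order. Within Q1, all 61 distal pairs were listed in each map and scored 1.16 in Grow, 1.03 in Grow-shA1, 0.785 in OIS and 1.07 in OIS-shA1. There OIS was the lowest of the 4 and OIS-shA1 was above Grow-shA1, so that the RAS difference was -0.377 without shA1 and 0.042 with it.

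Q1 with the outer q arm had larger differences on fewer pairs. Q1 with Q3 scored 0.372 in Grow, -0.030 in Grow-shA1, 0.057 in OIS and -0.474 in OIS-shA1 over 286 of 525 pairs. Q1 with Q5, which joins the gene-poor segment to the kallikrein and SIGLEC end, scored 1.22, 1.13, 0.589 and 0.399 over 196 of 420 pairs. Both growing maps were far above both OIS maps. Q1 with Q4 fell by 0.812 in OIS minus Grow, but only 70 of its 378 pairs were in common, and the OIS and OIS-shA1 maps listed 44.2 and 30.4% of them. With unlisted pairs at 0 the Q1 with Q4 difference turned to 0.087. Segments with more A than B bins (only 17 against 16 in P2) had no common direction in OIS minus Grow. Within Q3 the difference was 0.130 (111 of 111 pairs), Q3 with Q4 had 0.059 (368 of 399) and P2 with P3 0.003 (629 of 841). Within P3 it was -0.317 (121 of 160), P1 with Q4 had -0.321 (116 of 234) and P1 with itself -0.692 (14 of 23).

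**Figure D4:**
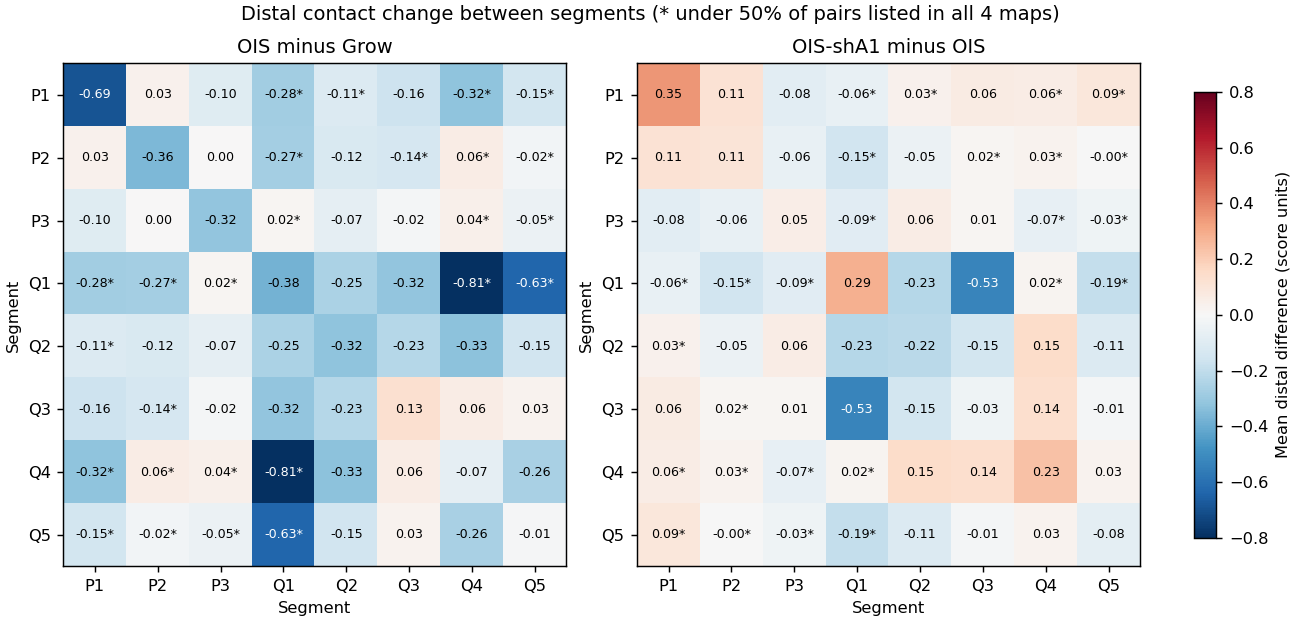
Mean distal difference between each pair of segments in score units, for OIS minus Grow on the left and OIS-shA1 minus OIS on the right. Values with an asterisk rest on under 50% of the pairs. Q1 with Q2 (-0.25) and Q2 with itself (-0.32) were low in OIS minus Grow, and Q1 with Q3 was lowest in OIS-shA1 minus OIS (-0.53).

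Compartment changes went almost wholly one way, from B to A. The shares below are over all bins, whereas only a B bin can go from B to A. The kept members had 97 A and 95 B bins in Grow, while most other chromosomes had more B than A bins. The part of this in the gaps between the shares was not tested. In OIS minus Grow 14 of 192 members (7.29%) went from B to A, where 9.47% of all kept bins did, and 0 went from A to B, where 0.713% did. In OIS-shA1 minus Grow-shA1 the counts were 12 (8% of all kept bins) and 1 (1.18%). In OIS-shA1 minus OIS they were 6 (1.53%) and 1 (3.15%), and in Grow-shA1 minus Grow 8 (1.79%) and 0 (1.48%). The scores of the 192 members correlated at r = 0.94 between Grow and OIS and at r = 0.97 between OIS and OIS-shA1.

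Of the 14 bins that went from B to A in OIS minus Grow, 5 lay in P2, 2 in Q2, 2 in Q3, 5 in Q4 and none in Q1. A zinc finger gene (ZNF, ZFP, ZSCAN, ZIM or ZIK by symbol) stood in 8 of them, and in 45 of the 192 kept members. These shares have unlike bases, since the 14 were all B in Grow. Of the 44 kept bins with a symbol that begins with ZNF, 13 were A in Grow, against 97 of the 192. The rule named bins that changed compartment only by count, and the 2 runs that follow were chosen after their values were seen. In P2 the neighbours chr19:11799987-11999892, chr19:11999893-12199667 and chr19:12199668-12400382 hold 6, 5 and 4 ZNF genes outside the clusters that the rule left out. The first of them scored -0.11 in Grow, -0.21 in Grow-shA1, 0.24 in OIS and 0.21 in OIS-shA1, with both OIS maps on the A side. In Q4 the 4 neighbours from 44.2 to 45.0 Mb hold 1, 9, 5 and 4. Of these the bin chr19:44396037-44604509 scored -0.21 in Grow, 0.05 in Grow-shA1, 0.29 in OIS and 0.17 in OIS-shA1, so that it was on the A side in Grow-shA1 already. Of the 14 bins, 7 also went from B to A in OIS-shA1 minus Grow-shA1. All but 1 of the other bins were on the A side in Grow-shA1 already, so that they could not go from B to A there. They stayed on the A side in OIS-shA1, and the remaining bin was B in OIS-shA1 at -0.01. Most of the 14 had started near the border, 11 of them with a Grow score above -0.25. Without the members that hold 3 or more ZNF genes, 8 bins went from B to A in OIS minus Grow.

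The RAS difference with shA1 was compared with that without it, which have no map in common. Over the 192 bins the 2 differences correlated at r = 0.76 (Spearman 0.72). Over 703 blocks of 5 by 5 bins the slope of the first on the second was 0.467 (r = 0.45), below the range of the other 22 chromosomes (0.537 to 0.791). The members also had the fewest common pairs of the 23 (9767), and the part of pair number in the slope was not tested. Over single pairs the slope was 0.143 and without Q1 it was 0.327. Of the 98 distal pairs (1%) that gained most in OIS minus Grow, 1 was among the 98 that gained most in OIS-shA1 minus Grow-shA1. That is 1.02% of the list, near the 1% of all common pairs that such a list takes. The first 98 comprised 56 A-A, 5 B-B and 37 A-B pairs, where all common pairs comprised 2849, 3325 and 3593.

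The genes of senescence and growth were followed in 7 lists with 74 genes, all of them in members, and each by the bin of its start of transcription. Of these genes, 17 lay in bins that were not kept, among them JUND, GDF15, LMNB2 and GADD45B. The bins of the other genes mostly stayed within 0.2 score units, where 31.2% of kept members had fallen past that limit. In OIS minus Grow the 8 kept bins of stress and cell death genes had a median of -0.002 (range -0.106 to 0.095), with 0 past the limit either way. Those of TGF beta and extracellular matrix genes had -0.037 (8 bins, 0 past the limit), inflammatory and secretory genes -0.027 (8 bins, 1 fell), cell cycle, replication and repair genes -0.047 (8 bins, 1 fell), ribosomal protein genes -0.042 (8 bins, 0 past the limit), AP-1, NF-kB and C/EBP factors -0.106 (9 bins, 0 past the limit) and chromatin and nuclear envelope genes -0.117 (5 bins, 1 rose). Each median was above the -0.134 of all kept members, but 5 to 7 bins of each list were A bins, and the medians of the transcription factor and chromatin lists were below the -0.049 of all A bins. Between OIS-shA1 and OIS, 1 bin of the AP-1, NF-kB and C/EBP list and 1 of the ribosomal list fell and 1 of the stress list rose.

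Among the transcription factors the lowest bin in OIS minus Grow was that of KLF2, a flow-induced Kruppel-like factor, at -0.192. The highest was that of JUNB, an AP-1 subunit, with a mean distal score of 0.22 in Grow, 0.32 in Grow-shA1, 0.36 in OIS and 0.15 in OIS-shA1. OIS was its highest map and OIS-shA1 its lowest, and OIS-shA1 minus OIS was -0.205. CEBPA, a C/EBP factor that arrests proliferation, was also picked after its values were seen and stood in a bin at 0.15 in Grow, 0.08 in Grow-shA1, 0.02 in OIS and -0.18 in OIS-shA1, highest in Grow and lowest in OIS-shA1. In the inflammatory list the chemokine gene CCL25 was lowest at -0.272, and the receptor gene IL12RB1 highest at 0.191. The bin that the adhesion molecule gene ICAM1 shares with DNMT1, the maintenance DNA methyltransferase, had 0.32 in Grow, 0.28 in Grow-shA1, 0.45 in OIS and 0.28 in OIS-shA1.

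In the cell cycle and repair list, POLD1, the catalytic subunit of DNA polymerase delta, was lowest. Its bin, B in Grow, scored 0.64 in Grow, 0.52 in Grow-shA1, 0.39 in OIS and 0.27 in OIS-shA1, and OIS minus Grow was -0.256. The bin of DNMT1 was highest at 0.126. In the matrix and TGF beta list the fibrillar collagen gene COL5A3 was lowest at -0.160 and the cartilage matrix gene COMP highest at 0.125. In the stress list RRAS, a RAS relative, had -0.106 and BAX, a pore-forming promoter of apoptosis, 0.095. In the chromatin list SAFB and SAFB2, which share a bin and bind scaffold attachment DNA, had -0.140 against 0.257 for SMARCA4. In the ribosomal list RPS28 had -0.154 and RPL18 0.169. The signs of most of these genes rest on unlisted pairs. With these at 0 the bins of COL5A3, RPS28 and RRAS turned to 0.018, 0.028 and 0.079, and with these at the 1st percentile those of JUNB, DNMT1, COMP and BAX turned to -0.357, -0.101, -0.228 and -0.292. KLF2, CCL25, POLD1 and SAFB kept their sign under both.

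Of the gene families, KLK, SIGLEC and PSG had medians of -0.281, -0.268 and -0.205, below that of all kept members, and CEACAM, OR, CYP4F and CYP2 did not. The 2 bins of the 15 KLK genes, secreted serine proteases of the kallikrein family, had OIS minus Grow differences of -0.379 and -0.183. The lower of them, chr19:51200378-51397915, scored 0.656 in Grow, 0.542 in Grow-shA1, 0.277 in OIS and 0.237 in OIS-shA1, with both growing maps above both OIS maps. All 3 SIGLEC bins fell, by 0.235 to 0.274, and in OIS-shA1 minus Grow-shA1 all 3 fell again, by 0.301 to 0.307. The 3 bins of the PSG genes, pregnancy-specific glycoproteins, fell by 0.203 to 0.248, although they were A bins by their score. In OIS-shA1 minus Grow-shA1 the PSG bins had a median of -0.150 and 0 fell. Of 5 CEACAM bins 1 fell, which is also a SIGLEC bin, and of the 7 OR (olfactory receptor), 2 CYP4F and 3 CYP2 bins none did. Their medians were -0.091, -0.124, -0.128 and -0.016. The 44 bins with a gene whose symbol begins with ZNF had a median of -0.154, with 16 falls and 0 rises, against 60 falls in the 192 kept members. These families cluster in neighbouring bins that share pairs, so bins of one family are not independent. The family medians and falls were not recomputed with unlisted pairs at 0 or at the 1st percentile. Over all members those settings gave 10 and 161 falls in OIS minus Grow.

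**Figure D5:**
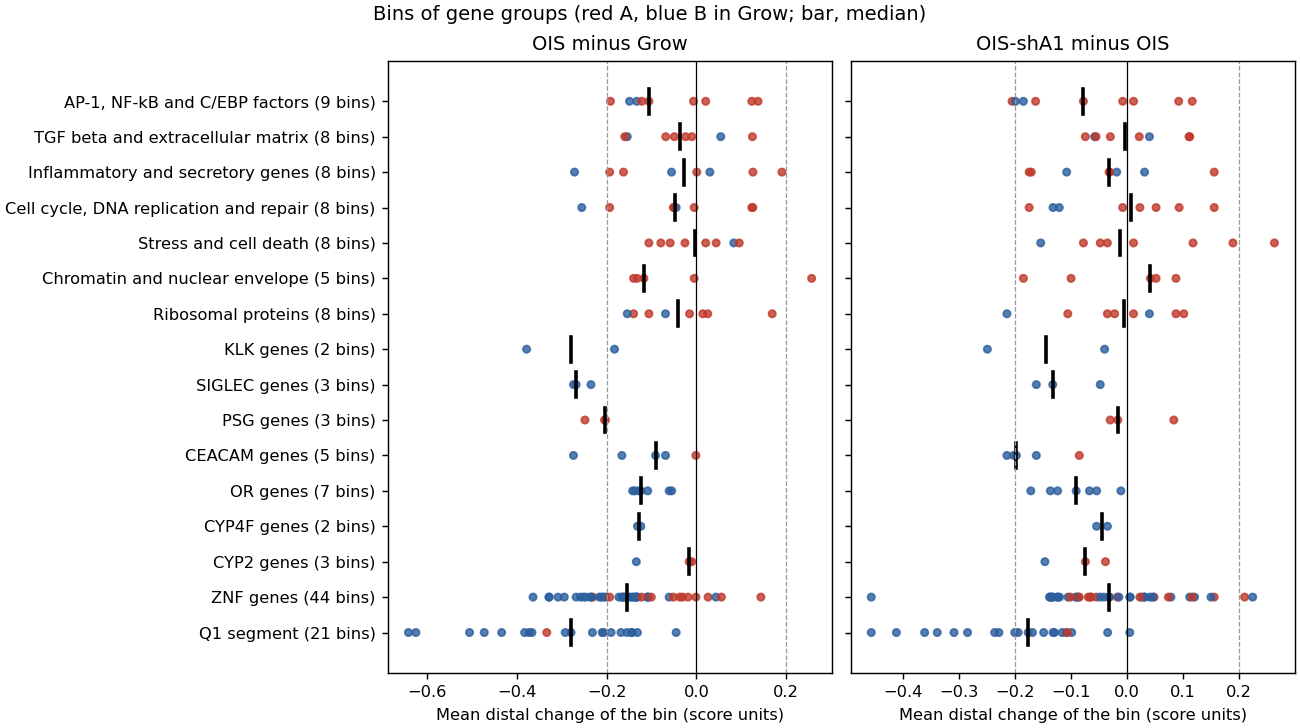
Mean distal change of the kept bins of each gene list, gene family and of Q1, for OIS minus Grow on the left and OIS-shA1 minus OIS on the right. Each point is a bin and the bar is the median. Bins of the stress, matrix and ribosomal lists sat around 0, while the KLK (median -0.281), SIGLEC (-0.268) and Q1 bins (-0.280) lay to the left in OIS minus Grow.

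The distal change went with sequence composition. In OIS minus Grow it correlated with GC content at r = 0.58 over the 192 kept members (0.46 within A bins, 0.38 within B bins and 0.47 without Q1). Only chromosome 16 had a higher r, of 0.64, and the median over the other 22 was -0.08. Chromosomes 17 (0.48), 9 (0.46), 20 (0.45), 22 (0.42) and 21 (0.39) had positive values too, so the sign was not particular to the members. The correlation was 0.48 in OIS-shA1 minus Grow-shA1, 0.55 in Grow-shA1 minus Grow and 0.27 in OIS-shA1 minus OIS, and in the last it was -0.01 within A and -0.03 within B bins. With the number of HindIII sites it was -0.60 in OIS minus Grow, and -0.62 without the 2 bins of satellite-like spacing. With the share of 1 kb windows of over 70% AT, the kind of sequence HMGA1 prefers, it was -0.41 in OIS minus Grow and -0.35 in OIS-shA1 minus OIS. GC content, HindIII sites, compartment and listing moved together along the chromosome, and their separate parts in the result were not tested.

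The zinc finger clusters that the rule left out differed from the members in level. Their 60 kept bins of 61, 54 of them B, had a compartment strength of 1.16 in Grow, 1.14 in Grow-shA1, 1.53 in OIS and 1.18 in OIS-shA1. OIS was highest there by 0.377 over Grow, whereas the members differed by 0.020. The B-B difference OIS minus Grow was -0.148 in the clusters and -0.232 in the members. The values of the clusters rest on 1139 common pairs and 6 A bins. The difference between both stretches was not tested.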

How the data were processed

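Hi-C libraries of IMR90 cells were aligned by the authors to hg19 with HiC-Pro, cleared of artefacts and duplicates, counted in bins of about 200 kb with edges at HindIII sites, balanced by iterative correction and scaled to distance. The deposited unit is a score, which gives the contact between a pair of bins after that scaling. The base of its logarithm and its prior are not stated, so differences stay in score units. Bin coordinates, the other deposited columns, ended at the GRCh37 length on 24 of 24 chromosomes. No read counts per pair are given and the 2 replicates of a shA1 condition share 1 map, so neither counting error nor a spread between replicates could be computed. The paper states fewer reads in total for OIS-shA1 than for Grow-shA1, and the part of this in the differences was not tested.

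From these files the kept bins, compartments (leading component of the bin-by-bin correlations of the chromosome, unlisted pairs at 0, gene-rich side positive), class means over pairs in all 4 maps, bin changes (at least 10 pairs) and block slopes were computed with Python 3.11.15, numpy 2.4.6 and pandas 2.3.3, and drawn with matplotlib 3.10.9. The functions were tested on simulated data. Genes came from GENCODE lifted to GRCh37, placed by start of transcription, and bin sequence from GRCh37. Chromosome Y was left out.

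The members, segments and gene lists were chosen with earlier results of these data known. Named were the genes of each list in the bins with the highest and lowest change in OIS minus Grow, the 3 largest rises and falls in OIS minus Grow and in OIS-shA1 minus OIS, and gene families as groups of bins. CEBPA, CCNE1, ICAM1, 2 runs of bins and the genes in bins that were not kept were named outside this rule. One bin that this rule names is not reported here. Alternatives changed the scaling, limits, centring, distance, treatment of unlisted pairs, compartments, members and block size.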

Additional observations from a re-analysis of the deposited data

How the results depend on the processing

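No paired analysis was possible because the replicates that share numbers in the labels were pooled into 1 map per condition before deposit. Each alternative changed one choice. A value counted as moved when it differed from the reported one by over 0.05 score units and by over 1.5 times, and a count when it differed by over 1.5 times. Unlisted pairs mattered most. With them at 0, the median distal change was -0.0020 in OIS minus Grow and 0.0063 in OIS-shA1 minus Grow-shA1, the A-B difference OIS minus Grow was 0.115, and the strength difference was -0.230 in OIS minus Grow, -0.276 in OIS-shA1 minus Grow-shA1 and -0.097 in Grow-shA1 minus Grow. With them at the 1st percentile of the map at that distance (chosen after seeing the data), these medians were -0.291 and -0.202, and the median of OIS-shA1 minus OIS was 0.019. Dividing each map by its SD at the same distance turned the strength difference OIS minus Grow to -0.105. The members that fell past 0.2 numbered 60 in OIS minus Grow, but 10 with unlisted pairs at 0 and 161 at the 1st percentile. In OIS-shA1 minus Grow-shA1 they numbered 52, but 4, 98 and, without Q1, 26. For OIS-shA1 minus OIS they numbered 17, but 0, 8 and 9, and 33 over pairs above 5 Mb. In Grow-shA1 minus Grow they numbered 13, but 1, 8 and 2.

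In OIS minus Grow the count of bins from B to A was 8 without bins of 3 or more ZNF genes and 9 with unlisted pairs at the 1st percentile, and from A to B it was 1 with compartments from members alone, 3 with compartments per arm and 1 with unlisted pairs at the 1st percentile. In OIS-shA1 minus OIS, B to A was 12 with compartments from members alone and 11 at the 1st percentile, and A to B was 2 with division by the SD, 2 with compartments from members alone, 6 per arm, 3 at the 1st percentile and 2 with every member that has a value in the 4 maps, the last also chosen after seeing the data. In Grow-shA1 minus Grow, A to B was 1 with members alone, 1 per arm and 1 at the 1st percentile. In OIS-shA1 minus Grow-shA1, B to A was 6 without bins of 3 or more ZNF genes, and A to B was 6 per arm, 4 at the 1st percentile and 2 with every such member. The slope over single pairs was 0.143.

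With unlisted pairs at 0, segment differences past 0.2 changed sign for P1 with Q1 (0.093), P2 with Q1 (0.015), Q1 with Q4 (0.087) and Q2 with Q4 (0.014) in OIS minus Grow, for Q1 with Q4 in Grow-shA1 minus Grow (0.024), and for P1 with Q1 (0.093), P2 with Q1 (0.027), Q1 with Q3 (0.028) and Q1 with Q4 (0.218) in OIS-shA1 minus Grow-shA1. The bin of SMARCA4 turned to -0.263 in OIS minus Grow at the 1st percentile. In OIS-shA1 minus OIS the bin of SERTAD1 turned to -0.047 over pairs above 5 Mb and the bin of CRX to -0.092 at the 1st percentile. The cause of these shifts was not tested. The distal B-B difference kept its sign in the 4 comparisons under each setting tried on it, and leaving out the 2 bins with over 200 HindIII sites, chosen after seeing the data, moved no median, strength, compartment count or slope by that rule.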
